A study of Mus musculus with 8 samples.

Results

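Clustered protocadherins are adhesion proteins of the cadherin superfamily, and their genes lie side by side in the alpha, beta and gamma clusters on mouse chromosome 18. Each alpha and gamma gene has a large variable exon with a promoter of its own, which is spliced to constant exons that all genes of the cluster share, whereas the beta proteins have no shared constant part. In neurons, where the family is best known, CTCF, cohesin and DNA methylation act in the choice of promoters, and the combination of proteins on a cell takes part in the recognition of self and non-self between neurites. The last genes of the alpha and gamma clusters, termed C-type, are known to be regulated apart from the others.

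Here these genes were followed in murine peritoneal mast cells (PMCs), that is, mast cells from the peritoneal cavity grown with IL-3 and SCF. All genes were taken whose symbol consists of Pcdha, Pcdhac, Pcdhb, Pcdhga, Pcdhgb or Pcdhgc and a number, which gave 58 of the 55359 genes in the deposited table. Of these, 14 belong to the alpha, 22 to the beta and 22 to the gamma cluster. The family was singled out because a window of chromosome 18 that holds it was low in both PMC lines and because Pcdhga3 fell. The family was thus chosen by its low measured levels in the lines against the primary cultures, and these are described below without a test. RNA of 8 cultures was sequenced, 1 of the line PMC-303, 1 of the line PMC-306 and 6 of primary PMCs from 3 female and 3 male mice. All mice were wild-type with a mixed C57BL/6x129/Sv background, and all cultures were left untreated. Both lines had arisen spontaneously from PMC cultures. According to the study both lines were grown with less FCS and SCF than primary PMCs, so that line and medium cannot be told apart for PMC-303 or PMC-306. Each line was sequenced once, so no replicate stands beside a value that concerns PMC-303 or PMC-306 alone.

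The libraries held 15918757 to 24180226 counts. Levels are given as CPM, counts per 1000000 counts of the library, with library sizes adjusted by the trimmed mean of M-values, and 3 counts corresponded to 0.123 to 0.187 CPM. The mast cell protease Cpa3 stood at 21762 to 38182 CPM in the primary cultures and at 23601 and 22835 CPM in PMC-303 and PMC-306. The list of 9 mast cell genes that holds it summed to 46498 to 75098 CPM in the primary cultures. Its sum was lower in both lines, at 39252 CPM in PMC-303 and 36007 in PMC-306. Of the 9 genes, 3 were lower and 0 higher in the lines at a limma adjusted p under 0.05. Over all genes tested, 15.5% were lower and 18.3% higher. Of 10 marker genes of fibroblasts and mesothelial cells, all 10 had at most 3 counts in every library, and the sum of the list ranged from 0.0919 to 0.420 CPM in the primary cultures and was 0.123 CPM in PMC-303 and 0.491 in PMC-306. The list of 8 neuronal and glial genes summed to 1.14 to 2.74 CPM in the primary cultures and to 2.43 and 2.46 CPM in the lines, and the neuronal markers Rbfox3, Syt1 and Snap25 had at most 0.196 CPM in any library. Lymphocyte markers summed to at most 0.255 CPM, and among the endothelial markers the 3 other than Pecam1, a gene that mast cells also express, had at most 3 counts everywhere. Of the macrophage list, C1qa and C1qb were at or near 0 throughout, while Adgre1 reached 426 CPM in PMC-306 against 3.37 to 46.4 CPM in the primary cultures. PMC-303 and PMC-306 also differed in sex-linked genes. In PMC-303 the Y-linked genes Kdm5d, Uty, Ddx3y and Eif2s3y stood at 0.977 to 1.55% of the male primary mean, and in PMC-306 at 76.2 to 122%. Xist stood at 900 CPM in PMC-303, 50.2% of the female primary mean, and at 0.147 CPM in PMC-306. The labels give no sex for the lines, while the study describes the karyotype of PMC-306 as male. The part of these differences in the values below was not tested. In such bulk RNA, fewer cells with a transcript and less transcript per cell cannot be told apart.

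The sum of the gamma cluster was 141 CPM in female 1, 120.2 in female 2, 112 in female 3, 87.0 in male 1, 138 in male 2 and 140.0 in male 3, a mean of 123 ± 21.3 (SD, n = 6). It was 24.4 CPM in PMC-303, 19.9% of that mean, and 6.33 CPM in PMC-306, 5.15% of it. The beta cluster summed to 10.5, 35.5 and 13.9 CPM in the female and to 5.98, 20.0 and 15.4 CPM in the male cultures, and to 2.14 CPM in PMC-303 and 1.23 in PMC-306, or 12.7% and 7.27% of the primary mean of 16.9 ± 10.3 CPM (SD, n = 6). Both lines thus lay below all 6 primary cultures in the gamma and in the beta sum. The alpha cluster was next to silent in all 8 cultures. Its 14 genes together had 0 counts in PMC-303 and female 2, 3 in PMC-306, 8 in female 1, 2 in female 3, 4 in male 1 and 1 each in male 2 and male 3. No fold change is given for it, since these counts are at or near the floor of 3 counts.

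**Figure D1:**
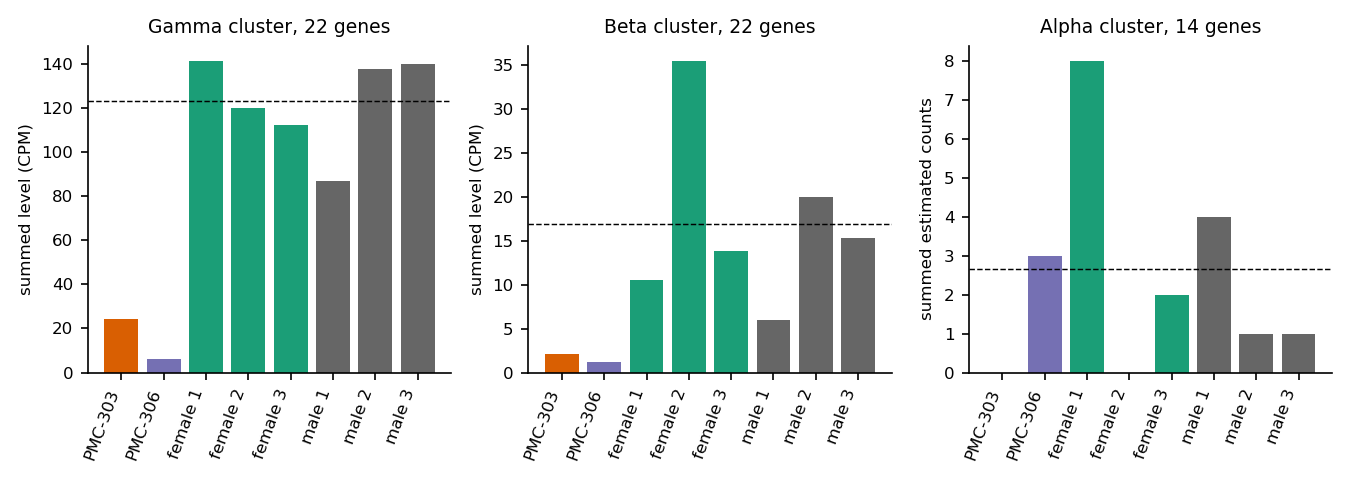
Summed levels of the gamma and beta clusters in CPM and summed counts of the alpha cluster, with 1 bar for each of the 8 libraries (orange PMC-303, violet PMC-306, green female and grey male primary cultures) and a dashed line at the mean of the 6 primary cultures. The gamma sum is 24.4 CPM in PMC-303 and 6.33 in PMC-306 against 87.0 to 141 CPM in the primary cultures, and no library has more than 8 alpha counts.

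Of the 58 genes, 15 had no count in any library, 9 of the alpha and 6 of the beta cluster. A level of at least 1 CPM, as the primary mean or in a line, was reached by 22 genes, namely by none of the alpha genes, by Pcdhb22 alone among the beta genes and by 21 of the 22 gamma genes. The remaining gamma gene, Pcdhgc5, had a primary mean of 0.913 CPM. Among the 22 genes, 20 lay below all 6 primary cultures in PMC-303 and all 22 did so in PMC-306, and none lay above them. Of all genes at this level, 30.2% lay below the primary cultures in PMC-303 and 32.8% in PMC-306, but the choice of the family rests on this contrast and nothing is read from the difference. On the scale of log2(CPM + 0.1), 14 of the 22 were at least 5-fold lower in PMC-303 (3.16% of all genes) and 21 of the 22 in PMC-306 (3.83% of all genes), and none was 5-fold higher (3.9% and 3.96% of all genes). The median log2 ratio to the primary mean was −2.83 in PMC-303 and −4.12 in PMC-306, beside 0.02 and −0.01 over all genes. With counts of 0 to 3 in a line set to 3, the medians were −2.83 and −4.00. Without a minimum level, 22 of the 43 genes with any count lay below the primary cultures in PMC-303 and 24 of 43 in PMC-306, beside 16.7% and 17.0% of all genes with any count.

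The alpha genes lie from position 37063237 to 37320716 on chromosome 18 (GRCm39). The most any of them had in a library was 8 counts, of Pcdha8 in female 1, and 12 of the 14 had at most 3 counts everywhere. The C-type gene Pcdhac2 had at most 2 counts. The table gives the symbol Pcdha11 to 2 rows, 1 of which is named Pcdha10 in the GENCODE release used here, and the larger of both had 4 counts in all.

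The beta genes lie from position 37397991 to 37657532. Pcdhb22, the last gene of the cluster, held most of its counts, with 72.9 to 97.4% of the beta sum in the primary cultures. Its level was 7.67, 34.6 and 13.1 CPM in female 1 to 3 and 5.72, 19.5 and 14.2 CPM in male 1 to 3, with a mean of 15.8 ± 10.4 CPM (SD, n = 6). PMC-303 had 1.98 CPM from 48 counts, which was 12.5% of the primary mean with a counting interval of 9.22 to 16.6%, and PMC-306 had 0.737 CPM from 15 counts, 4.66% (2.61 to 7.69%). Here and below, such intervals are exact 95% Poisson intervals of the line's count over the primary mean and cover counting error only. Both lines were below the lowest primary culture, while the primary cultures themselves spread over a wide range. The other 21 beta genes had at most 27 counts in any library, the maximum being Pcdhb16 in female 1, which had 1.24 CPM there and at most 0.187 CPM in the other cultures. The highest primary mean among them was 0.286 CPM. In PMC-306 Pcdhb22 held 60.0% of the 25 beta counts (95% Wilson interval 40.7 to 76.6%) and in PMC-303 92.3% of 52 (81.8 to 97.0%).

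The gamma genes lie from position 37794846 to 37975014 on the plus strand, and all of them end in the same constant exons. Between 28.6 and 67.4% of the exon bases of a gamma gene were shared with other members, with a median of 45.6%, so that the split of reads among them is an estimate, whereas the cluster sum is not affected by it. Every gamma gene had counts in every primary culture, at least 9.29 in each. In PMC-303, 18 of the 22 genes had more than 3 counts and 4 had 1 to 3, and in PMC-306 16 had more than 3, 5 had 1 to 3 and 1 had none. In PMC-303 the remaining level differed between parts of the cluster, though not every gene followed its part. To describe this, the genes were divided in chromosomal order into a first stretch of 9 genes from Pcdhga1 to Pcdhga7, a second stretch of 10 genes from Pcdhgb4 to Pcdhga12 and the 3 C-type genes Pcdhgc3 to Pcdhgc5, a division made after the values had been seen.

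**Figure D2:**
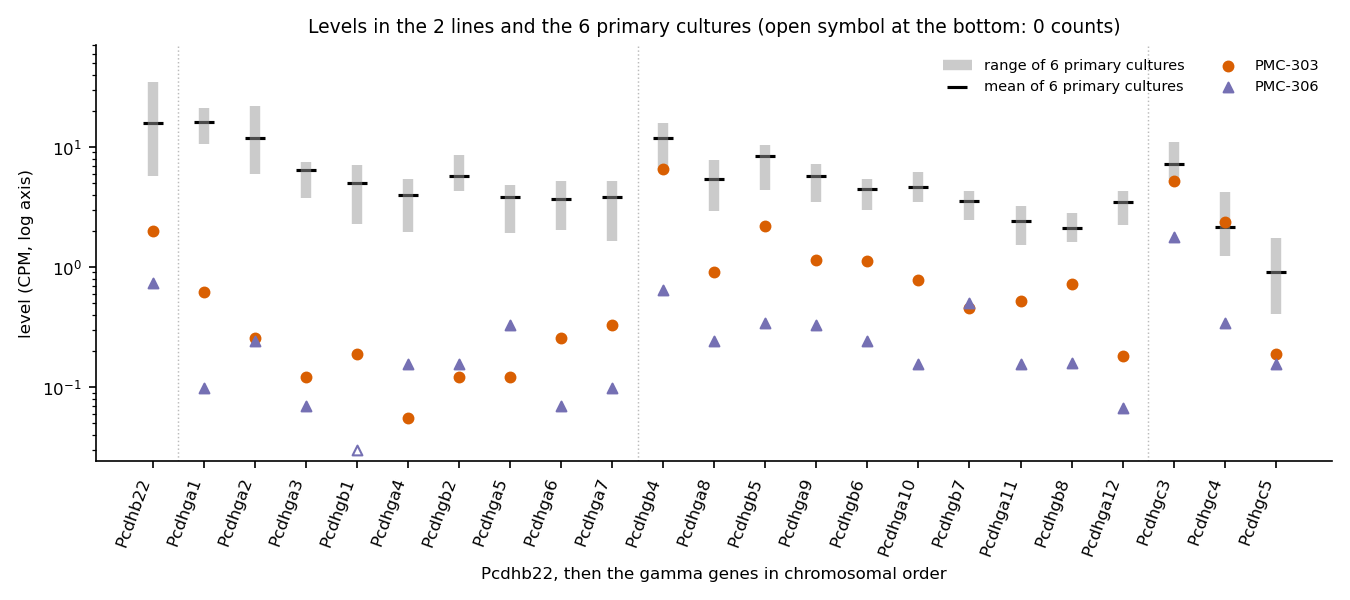
Level of Pcdhb22 and of the 22 gamma genes in chromosomal order, in CPM on a log axis, with grey bars for the range and black marks for the mean of the 6 primary cultures, orange circles for PMC-303 and violet triangles for PMC-306. Dotted lines part Pcdhb22, the first stretch, the second stretch and the C-type genes. PMC-303 lies inside the primary range only at Pcdhgb4 (6.60 CPM) and Pcdhgc4 (2.38 CPM).

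The first stretch summed to 35.4 to 70.2 CPM in the primary cultures, with a mean of 60.7 ± 13.3 (SD, n = 6). It summed to 2.06 CPM in PMC-303 and 1.22 in PMC-306, or 3.40% and 2.01% of the primary mean. Both lines kept little of it, and both lay far below the lowest primary culture. Pcdhga1, the first gene, was measured at 10.7 to 21.0 CPM in the primary cultures with a median of 16.7, and at 0.617 CPM in PMC-303 and 0.0982 in PMC-306. The 15 counts of PMC-303 corresponded to 3.82% of the primary mean (2.14 to 6.29%) and the 2 counts of PMC-306 to 0.607% (0.0735 to 2.19%). Per length it was the most abundant member of the family in the primary cultures, at 4.88 ± 1.41 TPM (TPM corrects for transcript length, n = 6), beside 3.39 ± 2.42 TPM for Pcdhb22 and 3.12 ± 0.782 TPM for Pcdhgb4, although the ranges of Pcdhga1 and Pcdhb22 overlapped. Pcdhga2 had 5.95 to 21.8 CPM (median 10.5) in the primary cultures against 0.255 and 0.242 CPM in PMC-303 and PMC-306. The corresponding shares of the primary mean were 2.14% (0.803 to 4.61%) and 2.04% (0.655 to 4.78%). Pcdhga1 and Pcdhga2 encode the first variable domains of the cluster, and neither came near the primary range in a line.

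Pcdhga3, the gene that drew attention to the family, had 7.51, 5.96 and 6.59 CPM in female 1 to 3 and 3.73, 7.32 and 7.26 CPM in male 1 to 3, a mean of 6.40 ± 1.43 CPM (SD, n = 6). It had 0.121 CPM in PMC-303 and 0.0696 in PMC-306, each from fewer than 3 estimated counts, so that its 1.90% of the primary mean in PMC-303 has an interval of 0.383 to 5.59% and its 1.09% in PMC-306 one of 0.0693 to 4.82%. These levels did not set it apart from its neighbours in the stretch. The B-type gene Pcdhgb1 had 2.26 to 7.07 CPM (median 5.07) in the primary cultures, 0.188 CPM in PMC-303 and 0 counts in PMC-306, where it was at least 33.9-fold lower than the primary mean if 3 counts are taken as the floor. Pcdhga4 had 1.94 to 5.43 CPM (median 4.40) against 0.0552 and 0.155 CPM in PMC-303 and PMC-306. Pcdhgb2 had 4.26 to 8.59 CPM (median 5.59) against 0.122 and 0.156 CPM. In these 4 genes the lines and the primary cultures did not overlap, and the lines could not be put in an order at counts this low.

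The last genes of the first stretch behaved alike. Pcdhga5 had 1.91 to 4.81 CPM (median 4.15) in the primary cultures and 0.122 and 0.330 CPM in PMC-303 and PMC-306. Pcdhga6 had 2.04 to 5.20 CPM (median 3.70) and 0.254 and 0.0695 CPM, and Pcdhga7 1.63 to 5.16 CPM (median 4.06) and 0.329 and 0.0982 CPM. Over the 9 genes of the stretch the share of the primary mean ranged from 1.38 to 8.57% in PMC-303 with a median of 3.19%, and from 0 to 8.63% in PMC-306 with a median of 2.04%.

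The second stretch began with Pcdhgb4, and here the lines parted. Its sum was 35.9 to 65.3 CPM in the primary cultures (mean 52.1 ± 10.9, SD, n = 6), 14.6 CPM in PMC-303 and 2.83 in PMC-306, or 28.1% and 5.43% of the primary mean. Pcdhgb4 had 15.8, 10.7 and 6.40 CPM in female 1 to 3, 10.8, 12.3 and 15.4 CPM in male 1 to 3, 6.60 CPM in PMC-303 from 160 counts and 0.638 CPM in PMC-306 from 13 counts. PMC-303 thus lay within the primary range, just above female 3, at 55.5% of the primary mean (47.3 to 64.8%), while PMC-306 lay below it at 5.37% (2.86 to 9.18%). On the TPM scale Pcdhgb4 of PMC-303 was 1.63 and lay below the primary range of 1.90 to 4.20. The gene next to it, Pcdhga8, had 2.92 to 7.74 CPM (median 5.61) in the primary cultures, 0.915 CPM in PMC-303 and 0.241 in PMC-306. Between Pcdhga7 and Pcdhgb4, which are neighbours in the gene order, the share kept in PMC-303 went from 8.57% (3.70 to 16.9%) to 55.5%. The border of the stretches was placed here after the values had been seen, so nothing more is read from this step. The intervals also leave out the estimated split of reads among genes.

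Pcdhgb5 had 4.39 to 10.4 CPM (median 9.02) in the primary cultures, 2.18 CPM in PMC-303 (25.9% of the primary mean, 19.4 to 33.9%) and 0.344 CPM in PMC-306 (4.08%, 1.64 to 8.40%). Pcdhga9 followed with 3.46 to 7.19 CPM (median 6.06) against 1.15 and 0.331 CPM in PMC-303 and PMC-306. In both genes the intervals of the lines did not overlap, and PMC-303 was the higher of the lines. Pcdhgb6 had 3.01 to 5.39 CPM (median 4.72), 1.12 CPM in PMC-303 and 0.242 in PMC-306, and Pcdhga10 had 3.51 to 6.19 CPM (median 4.59), 0.782 CPM and 0.155 CPM. Pcdhgb7 made an exception, since with 2.48 to 4.29 CPM in the primary cultures (median 3.88) it had 0.455 CPM in PMC-303 and 0.501 in PMC-306, and the lines did not differ beyond counting error. Its share of the primary mean was 12.8% (6.41 to 22.9%) in PMC-303 and 14.1% (6.83 to 25.8%) in PMC-306.

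At the end of the stretch, Pcdhga11 had 1.52 to 3.23 CPM (median 2.43) in the primary cultures, 0.518 CPM in PMC-303 and 0.154 in PMC-306. Pcdhgb8 had 1.62 to 2.83 CPM (median 1.99), 0.727 CPM and 0.157 CPM. Both kept more in PMC-303 than any gene of the first stretch. Pcdhga12, the last gene before the C-type genes, had 2.25 to 4.32 CPM (median 3.56) in the primary cultures, but with 0.180 CPM in PMC-303 and 0.0671 in PMC-306 it kept only 5.20% (1.53 to 12.8%) and 1.94% (0.114 to 8.77%) of the primary mean, as little as the first stretch. Over the 10 genes of the second stretch the share kept ranged from 5.20 to 55.5% in PMC-303 with a median of 20.7%, and from 1.94 to 14.1% in PMC-306 with a median of 5.41%.

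**Figure D3:**
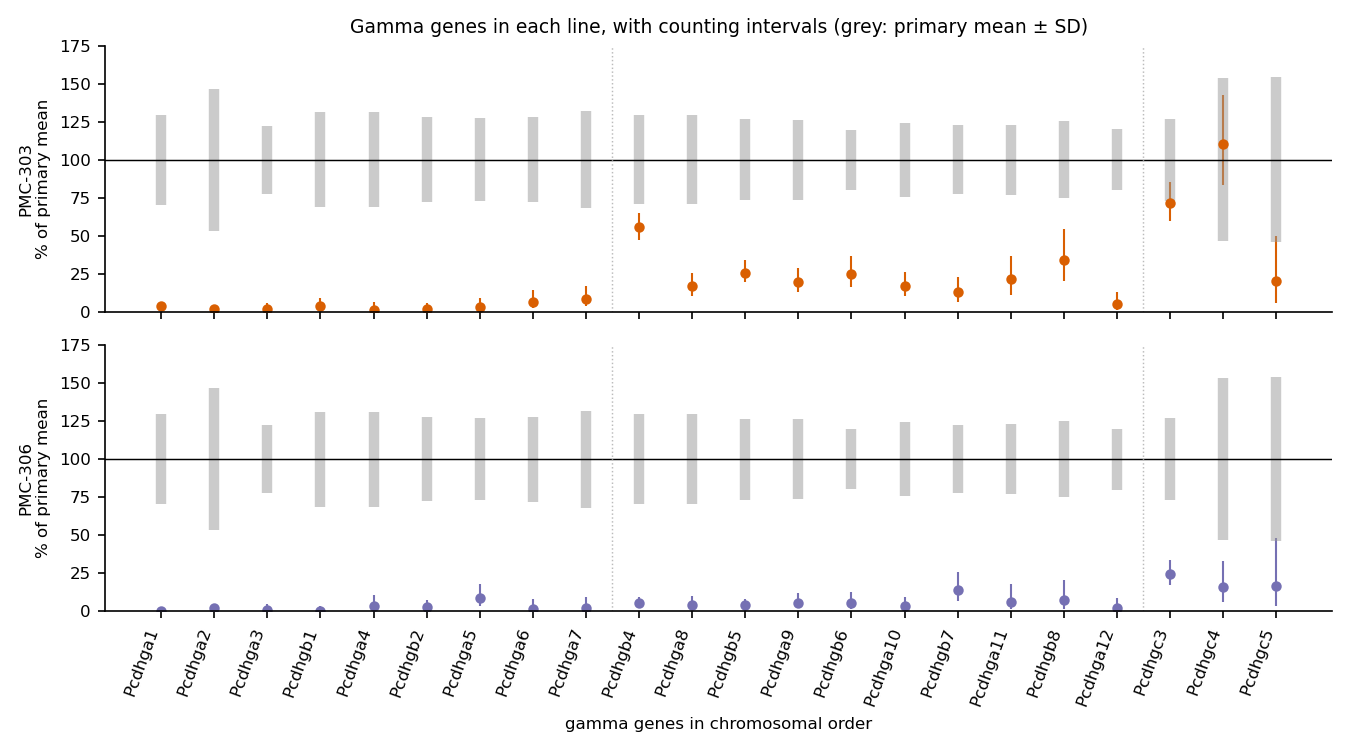
Share of the primary mean kept by each of the 22 gamma genes in PMC-303 (upper panel) and PMC-306 (lower panel), in percent, in chromosomal order. Points carry exact 95% Poisson intervals of the line's count, grey bars show the primary mean ± SD of 6 cultures, and dotted lines divide the stretches. In PMC-303 the median share is 3.19% in the first stretch and 20.7% in the second.

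As a sum, the C-type genes were the least reduced of the 3 stretches. Together they had 7.89 to 15.6 CPM in the primary cultures (mean 10.3 ± 3.10, SD, n = 6), 7.75 CPM in PMC-303 and 2.28 in PMC-306, which is 75.2% and 22.1% of the primary mean. Pcdhgc3, known as an inhibitor of Wnt signalling, had 7.74, 6.35 and 6.19 CPM in female 1 to 3, 10.9, 6.89 and 5.40 CPM in male 1 to 3, 5.19 CPM in PMC-303 and 1.79 in PMC-306. PMC-303 lay just below the lowest primary culture at 71.6% of the mean (59.6 to 85.3%), and with total counts in place of the trimmed mean scaling it lay within the range. PMC-306 kept 24.7% (17.3 to 34.1%), more than of any other gene of the cluster. Pcdhgc4, known to be needed for the survival of neurons, had 2.78, 1.31 and 1.25 CPM in the female and 4.20, 1.93 and 1.48 CPM in the male cultures. With 2.38 CPM PMC-303 was in the middle of that range, at 110.2% of the primary mean (83.7 to 143%), whereas PMC-306 had 0.344 CPM and lay below it. Pcdhgc5 was low throughout, at 0.408 to 1.73 CPM in the primary cultures, 0.187 CPM in PMC-303 and 0.155 in PMC-306.

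The make-up of the cluster was not the same in the lines and in the primary cultures. In the primary cultures the first stretch held 40.7 to 54.9% of the gamma sum, the second 38.4 to 46.7% and the C-type genes 5.64 to 17.98%. In PMC-303 these values were 8.44, 59.8 and 31.7%, and in PMC-306 19.2, 44.7 and 36.1%. The C-type share was thus above the primary range and the share of the first stretch below it in both lines. Counts were spread over many genes in the primary cultures, where 21 or 22 gamma genes had at least 1 CPM and the leading gene, Pcdhga1 or Pcdhga2, held 12.6 to 18.2% of the sum. The effective number of genes, that is, the number of equally abundant genes that would give the same concentration, was 12.9 to 16.3. In PMC-303, 6 genes had at least 1 CPM, Pcdhgb4 led with 27.0% (95% Wilson interval 23.5 to 30.6%) and the effective number was 6.89. In PMC-306 Pcdhgc3 alone reached 1 CPM, with 28.2% of the sum (20.9 to 36.2%), and the effective number was 8.62. The smaller number of counts in the lines leaves these shares less precise than those of the primary cultures.

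**Figure D4:**
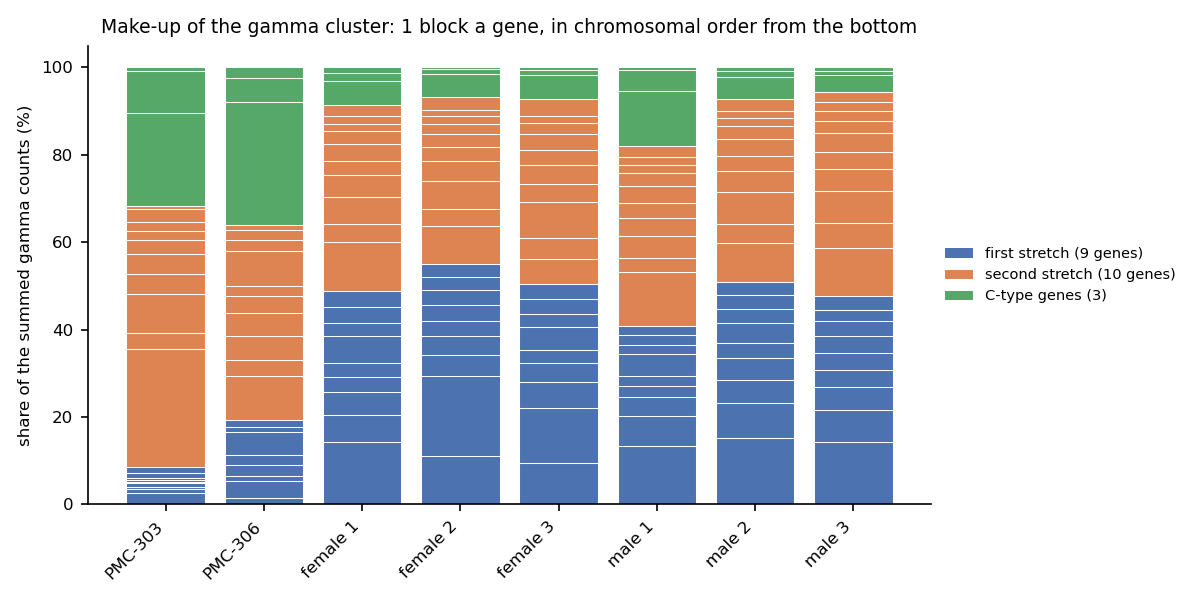
Share of the summed gamma counts, in percent, of the 9 genes of the first stretch (blue), the 10 genes of the second stretch (orange) and the 3 C-type genes (green) in each of the 8 libraries, with 1 block for each gene. The C-type genes hold 31.7% in PMC-303 and 36.1% in PMC-306 against 5.64 to 17.98% in the primary cultures, where male 1 has the highest share.

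The deposited table of transcripts lists 38 transcripts for the 22 gamma genes. Of these, 27 reach the constant exons and 11 end before them, 8 of the latter being a single exon. Transcripts that end before the constant exons held 49.4, 40.7 and 44.1% of the gamma counts in female 1 to 3 and 34.5, 50.8 and 47.4% in male 1 to 3. Their share was 21.7% in PMC-303 (95% Wilson interval 18.6 to 25.2%) and 27.9% in PMC-306 (20.9 to 36.2%). Both values were below the lowest primary culture, male 1, but the interval of PMC-306 overlapped that of male 1 (32.2 to 36.7%). In CPM these transcripts had 9.52% of the primary mean in PMC-303 and 3.17% in PMC-306, and those reaching the constant exons 28.4% and 6.78%. Since both kinds share the variable exon, reads were divided between them by estimation, and no interval covers that step.

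In single genes the kinds of transcript went apart further. For Pcdhgb4 the transcript that reaches the constant exons had 141 counts in PMC-303, 0 in PMC-306 and 9.64 to 135 in the primary cultures, with 5.81 CPM in PMC-303 against a primary mean of 3.02 ± 2.22 CPM. Its other transcript, which ends early, had 19.4 counts in PMC-303 and 13 in PMC-306 against 75.1 to 267 in the primary cultures. The level kept by Pcdhgb4 in PMC-303 was thus assigned mostly to the form that reaches the constant exons. The same held for Pcdhgc3, where the transcript counted as reaching the constant exons had 123 counts in PMC-303, 33.6 in PMC-306 and 7.68 to 192 in the primary cultures. The early ending one had 3.45 and 2.80 counts in the lines against 21.6 to 128. For Pcdhgb1, Pcdhgb2 and Pcdhga12 no counts were assigned to the early ending transcript in either line, beside 44.3 to 118, 73.5 to 149 and 44.0 to 73.3 counts in the primary cultures. Pcdhgb1 was assigned to its early ending transcript alone in all 6 primary cultures. In PMC-303 it was assigned only to the transcript that reaches the constant exons, with 4.56 counts.

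The primary cultures differed among themselves in the family more than in most genes. Over the 6 cultures the SD of log2(CPM + 0.1) had a median of 0.441 in the 23 members tested between the sexes, with a range from 0.303 to 0.922, beside 0.184 over all genes tested. All genes were not matched to the members by level, and counting error weighs more in low genes. Its part in the wider spread of the members was not tested. Male 1 was the lowest culture in most members, which was noticed after the values had been seen. Dixon's test, given below, did not set it apart in any cluster sum, stretch or member tested there. Of the 22 members with at least 1 CPM there or in the other 5 cultures, 18 were lower in male 1 than in each of the other 5 and 2 were higher, with a median log2 ratio of −0.78, while 13.6% of all genes were lower and 15.7% higher in it than in the other 5. The members that were higher in male 1 were Pcdhgc3 and Pcdhgc4. In female 3, by comparison, 3 of 22 members were lower than in each of the other 5 cultures (18.5% of all genes) and 1 was higher (18.7%). The first stretch of male 1 had 35.4 CPM against 56.6 to 70.2 in the other primary cultures, and its C-type genes held 17.98% of the gamma sum against 5.64 to 8.66%. Among transcripts that reach the constant exons, that of Pcdhgc3 had 192 counts in male 1 and 7.68 to 73.7 in the other primary cultures. That of Pcdhgc4 had 82.3 against 0 to 18.98, and that of Pcdhgb4 135 against 9.64 to 76.9. Even in male 1 the gamma sum was above that of both lines.

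Between female and male primary cultures, a contrast that took no part in the choice of the family, no member passed the test. Of the 22 gamma genes and Pcdhb22, which passed the filter on low values, 0 reached an adjusted p of 0.05 in limma with Benjamini-Hochberg adjustment over 13710 genes, and 0 had an unadjusted p under 0.05. Over all genes 6 were called (0.0438%), 2 higher (0.0146%) and 4 lower (0.0292%) in female cultures, and 456 had an unadjusted p under 0.05. The adjusted p was 0.9999 for each of the 23 members. Log2 differences, female minus male, ranged from −0.45 for Pcdhgc4 to 0.67 for Pcdhga2, and 16 of the 23 were above 0. Their median was 0.07, beside 0.01 over all genes. Male 1, the lowest culture in most members, is among the 3 male cultures, so nothing is read from this count. Pcdhga2 had 14.9 ± 6.65 CPM in female and 8.95 ± 2.62 CPM in male cultures (SD, n = 3 each), a log2 difference of 0.67 ± 0.38 (SE). For Pcdhga3 the difference was 0.19 ± 0.28 (SE). With 3 cultures of each sex, differences between the sexes may have gone undetected.

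Genes on either side of the clusters were looked at next, again without a test because they lie in or near the window that chose the family. Of genes with a primary mean of at least 1 CPM, 31 lay within 500 kb of the clusters or between their members. They kept a median of 89.3% of the primary mean in PMC-303 and 90.2% in PMC-306. The 17 genes before the alpha cluster had medians of 102% and 99.7%, and the 10 genes after the gamma cluster 74.2% and 55.8%. Taf7, a subunit of the general transcription factor TFIID whose gene lies between the beta and the gamma cluster, stood at 139.6% of the primary mean in PMC-303 and 129% in PMC-306. Diaph1, a formin that nucleates actin filaments and the first of the genes after the gamma cluster, stood at 95.3% and 91.4%, and the histone deacetylase Hdac3 at 145% and 121%. These 3 neighbours were thus near or above the primary mean in both lines. Of the 31 genes, 13 lay below and 8 above all 6 primary cultures in PMC-303 (30.2% and 36.2% of all genes). In PMC-306, 9 lay below and 7 above them (32.8% and 34.6% of all genes).

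Some neighbours were low. The non-coding gene 3222401L13Rik, which ends 50 bases before Pcdhga1 on the same strand, had 5.54 to 15.2 CPM in the primary cultures, 3.87 CPM in PMC-303 and 0.344 in PMC-306, or 33.0% and 2.93% of the primary mean. Gm53048, a pseudogene that spans a large part of the gamma cluster on the same strand, had 20 to 50 counts in the primary cultures and 0 and 1 in PMC-303 and PMC-306, and reads of overlapping genes cannot be told apart. Behind the gamma cluster, Rell2 had 37 to 80 counts in the primary cultures against 4 in PMC-303 and 5 in PMC-306. Gnpda1, an enzyme of glucosamine metabolism, stood at 46.4% of the primary mean in PMC-303 and 26.7% in PMC-306. Arap3, Dele1 and Rnf14, also behind the gamma cluster, stood at 51.3 to 76.6% in the lines. Each of them lay below all 6 primary cultures in both lines.

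Genes for CTCF, cohesin, DNA methylation and repressive chromatin followed, and more of them rose than fell in the lines. The list of 27 such regulators holds general factors of these kinds, and not each is known to act on protocadherin promoters. Of the 27, 15 were higher and 1 was lower in the lines than in the primary cultures in limma, with the lines taken as 2 replicates. The other 11 did not pass the adjusted threshold of 0.05. Over all 14529 genes tested, 18.3% were higher and 15.5% lower. Higher genes thus made up 54.2% of the 4920 calls, and 67.2% of 5071 calls when total counts were used for scaling, which moved the median of all genes from −0.01 to 0.10. The median log2 difference of the list, lines minus primary cultures, was 0.50, beside −0.01 over all genes. The largest difference was that of Uhrf1, which recruits the methyltransferase Dnmt1 to keep DNA methylation through replication. Both genes are known to be made at higher levels in dividing cells. According to the study PMC-306 grew much faster than primary PMCs, and both lines proliferated strongly. How far proliferation enters the values of this list was not tested. Uhrf1 had 155 and 116 CPM in PMC-303 and PMC-306 against 10.9 to 20.7 CPM in the primary cultures (log2 difference 3.01 ± 0.26, SE, limma adjusted p = 0.00012), and Dnmt1 325 and 288 CPM against 87.0 to 114 CPM (1.58 ± 0.10, limma adjusted p = 5.6e-05).

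Cohesin holds chromatin loops together with CTCF, and its subunits Smc3, Rad21, Smc1a and Stag1 rose, by 1.17, 0.99, 0.98 and 0.54 on the log2 scale, while the subunit Stag2 and the cohesin loaders Nipbl and Mau2 did not pass the test, with log2 differences of 0.22, −0.19 and −0.19 (limma adjusted p = 0.057, 0.21 and 0.088). Ctcf itself had 139 and 122 CPM in PMC-303 and PMC-306 against 79.4 to 103 CPM in the primary cultures (log2 difference 0.59 ± 0.10, SE, limma adjusted p = 0.0033). The genes Ctcf and Mau2 lie on chromosome 8. According to the study most, but not all, metaphases of PMC-303 had an additional copy of this chromosome, which was not seen in PMC-306. The part of gene copies in the values of Ctcf and Mau2 was not tested. Smchd1, a repressor known to act on the clustered protocadherins, rose by 0.50 and the corepressor Trim28 by 0.70. These 9 regulators passed the threshold in every alternative computed. The other 7 calls were lost in at least 1 alternative, among them that of Tet1, which oxidises methylcytosine (log2 difference 1.63 ± 0.50, limma adjusted p = 0.037, 0.19 without PMC-303, 0.081 without PMC-306, 0.056 without male 2 and 0.062 without male 3). The call of Lrif1, a partner of Smchd1 and the only regulator that fell, by 0.42, had limma adjusted p = 0.034 and lost it without PMC-303 or PMC-306 and without each primary culture except female 2. Dnmt3b, one of the enzymes that set new methylation, and Wiz, a zinc finger protein known to act with CTCF at these clusters, did not pass, with log2 differences of 0.66 ± 0.32 and −0.12 ± 0.13 (limma adjusted p = 0.14 and 0.52).

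**Figure D5:**
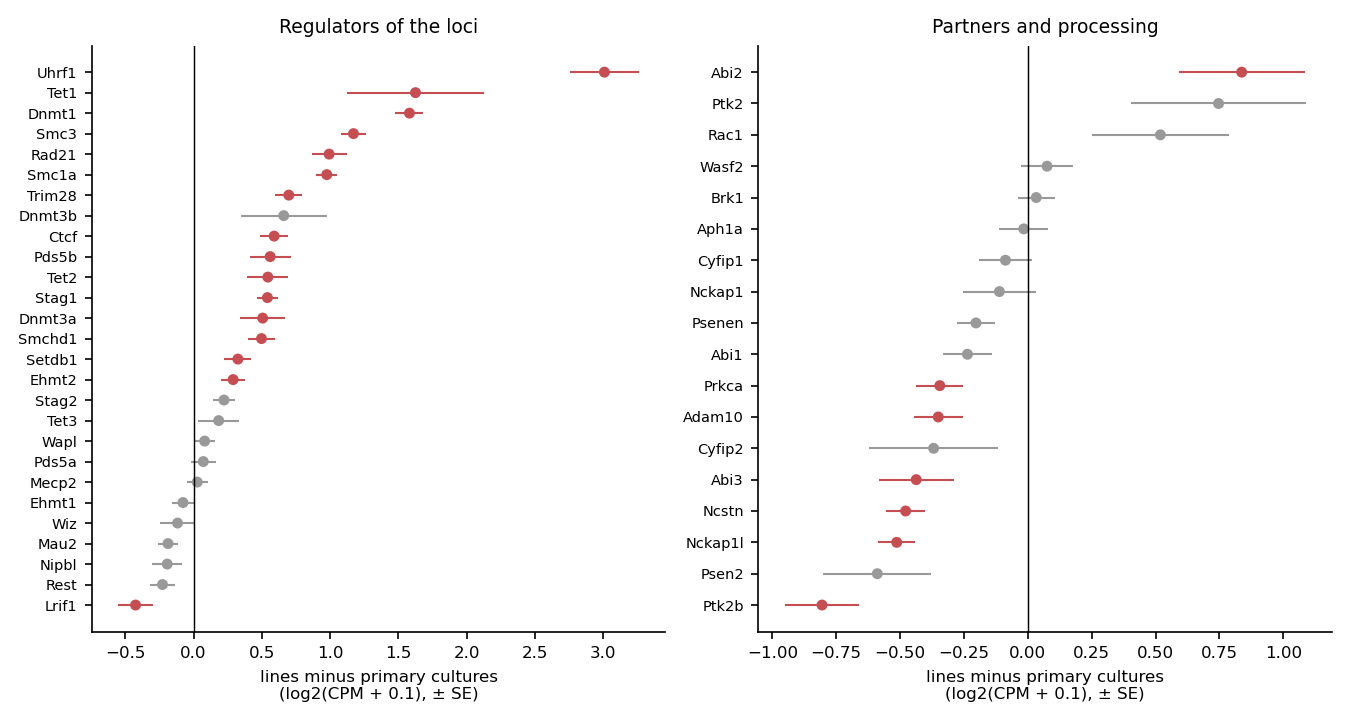
Log2 differences of (CPM + 0.1), lines minus primary cultures, with standard errors, for the 27 genes of the regulator list (left) and 18 partners and processing enzymes that passed the filter (right). Red marks an adjusted p under 0.05 in limma over all genes. Of the regulators 15 are higher and 1 is lower, of the partners 1 is higher and 6 are lower.

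Genes for proteins known to bind or cut protocadherins showed smaller differences. Of 22 such genes 18 passed the filter, 1 was higher, 6 were lower and 11 did not pass the threshold. Over all genes tested, 18.3% were higher and 15.5% lower. The list median was −0.22 on the log2 scale beside −0.01 over all genes. Ptk2b, the kinase PYK2 that protocadherin cytoplasmic domains inhibit, had 171 and 214 CPM in PMC-303 and PMC-306 against 276 to 385 CPM in the primary cultures (log2 difference −0.81 ± 0.15, SE, limma adjusted p = 0.0038). Nckap1l, the WAVE complex subunit of blood cells, fell by 0.51 and Ncstn, the nicastrin subunit of gamma-secretase, fell by 0.48. These 3 calls held in every alternative. The other 4 calls, those of Abi2, Abi3, Adam10 and Prkca, were each lost in at least 1 alternative. Abi2, another WAVE subunit, was higher by 0.84 ± 0.25 (limma adjusted p = 0.030) but not without PMC-303 (0.14), PMC-306 (0.087), female 1 (0.055), male 1 (0.054) or male 2 (0.054). The related kinase Ptk2 did not pass (0.75 ± 0.34, limma adjusted p = 0.13).

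Protocadherins outside the clusters were mostly not expressed. Of 12 such genes 10 did not pass the filter, and 7 of the 12 had at most 3 counts in every library. Pcdh7 was low at 0 to 2.06 CPM in the primary cultures, and with 0.0823 and 0 CPM the lines did not pass the test in limma (log2 difference −1.82 ± 1.14, SE, adjusted p = 0.25). Pcdh1 lies behind the gamma cluster on chromosome 18 and is therefore only described. It had 26.7, 33.9 and 24.9 CPM in female 1 to 3, 27.8, 28.8 and 0.629 CPM in male 1 to 3, 13.6 CPM in PMC-303 and 2.55 in PMC-306. PMC-303 was below 5 of the primary cultures and PMC-306 as well, while male 3 was lower than both lines.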

How the data were processed

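Total RNA of 8 PMC cultures was measured, namely 1 of PMC-303, 1 of PMC-306, 3 female and 3 male primary cultures, grouped by their labels. According to the study's methods and the submitters' processing notes, the authors trimmed reads of a stranded total RNA library with Trim Galore 0.6.7, aligned them to GRCm39 with STAR 2.7.9a and quantified them with Salmon 1.5.2. The annotation release was not given in the sources used here. The deposited tables hold estimated counts per gene and per transcript and TPM per gene. The authors' tables had passed through a spreadsheet program, which altered 3.37% of the gene count cells, and these were restored from the number format and the transcript table. None of the 464 cells of clustered protocadherins was altered, and 0 columns belonged to no sample.

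Counts were scaled to CPM with trimmed mean of M-values factors and analysed as log2(CPM + 0.1), a scale that understates fold changes of low genes. Because cells had been rewritten, no count model was used, and limma 3.58.1 (R 4.3.3, trended moderated statistics, Benjamini-Hochberg adjustment, two-sided, threshold 0.05) took its place. Genes with at least 10 counts in 2 libraries (lines) or 3 libraries (sexes) and 15 in total were tested. Other steps used Python 3.11.15, pandas 2.3.3, numpy 2.4.6, scipy 1.17.1 and matplotlib 3.10.9, and exons were taken from GENCODE release M39. The fits were checked on simulated data. Values per library were given for every clustered protocadherin with at least 1 CPM in the primary mean or a line. Of the other lists, all genes were counted and the called genes with the largest changes, or with a role described, were named. A single gene of the partner list is not reported here and was left out of its counts.

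The members, lists and tests were chosen with earlier results of these data known. The primary cultures are labelled as biological replicates. Intervals cover counting error only. Alternatives were other scalings, offsets, no filter, deposited TPM, 1 sex only, a replicate block and leaving out each library.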

Additional observations from a re-analysis of the deposited data

Results flagged for a closer look

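Each value was compared with the others of its group by Dixon's test on the 6 primary cultures, over 74 measures, of which chance alone gives about 3.7. The beta and gamma sums, the 3 gamma stretches and the 22 clustered protocadherins with at least 1 CPM had no culture that stood apart by this test, and members below that level were not tested in it, among them Pcdhb16 with 1.24 CPM in female 1 against 0.187 CPM in the next culture. Instead, 4 genes around the family had. Pcdh1, the protocadherin behind the gamma cluster, had 0.629 CPM in male 3 against 24.9 CPM in the next lowest culture and 33.9 CPM in the highest. Ctcf had 102.5 CPM in female 3 against 87.9 CPM in the next culture and 79.4 CPM in the lowest. Female 2 stood apart in both others, with 31.4 CPM of Lrif1 against 40.7 CPM in the next lowest culture and 163.0 CPM of Abi3, a WAVE complex partner, against 122 CPM in the next highest.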

How the results depend on the processing

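The beta and gamma sums and the 3 gamma stretches kept their direction under each other scaling, offset, reference sex and left out library. So did the 22 members with at least 1 CPM, except Pcdhgc4 in PMC-303, whose log2 ratio of 0.13 was −0.09 against the male cultures alone. The alpha sum was not recomputed. With an offset of 1 CPM the first stretch had a log2 ratio of −4.33 in PMC-303 and −4.80 in PMC-306 (−4.81 and −5.53 with 0.1), and the second stretch −3.79 in PMC-306 (−4.16). On deposited TPM 12 of the 12 members that reached 1 TPM were below all primary cultures in each line, and the mean share of Pcdhga1 in the gamma sum was 15.4% in place of the share of CPM. When each primary culture was left out, the log2 ratio of the gamma sum was −2.41 to −2.28 in PMC-303 and −4.34 to −4.22 in PMC-306, and that of the beta sum −3.10 to −2.56 and −3.85 to −3.32. The first stretch ranged from −4.93 to −4.77 and from −5.64 to −5.48, the second from −1.91 to −1.75 and from −4.24 to −4.08, and the C-type genes from −0.47 to −0.25 and from −2.19 to −1.97. Members below the primary cultures numbered 20 to 21 and 22 to 23. Leaving out 1 library, 3848 to 4664 genes were called in the lines, and where only 1 line was left its spread was assumed to be that of the primary cultures. Between the sexes 5 to 6 genes and 0 to 0 members were called. With the replicate number as a block 5 genes (6 without) and 0 members were called. The labels do not say what a number stands for, and same-numbered female and male cultures correlated at 0.40, −0.22 and 0.28 in their deviations from the group means, so that the numbers were not taken as pairs, and not every culture correlated best with its own number. At these depths, 3 counts or fewer leave 4 gamma genes of PMC-303 and 6 of PMC-306 without an order among themselves.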
